A study of Spodoptera exigua with 2 samples.

Results

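Spaetzle is the cytokine that activates Toll signaling in insects. Of the 13002 genes counted in hemocytes (blood cells) of the beet armyworm Spodoptera exigua, 4 are given as Spaetzle loci in the study's diagram of immune genes: SPEXI_LOCUS12010, SPEXI_LOCUS9628, SPEXI_LOCUS4403 and SPEXI_LOCUS4651. They were chosen by these locus numbers, and all 4 were detected in both libraries. The diagram does not pair the numbers with names of single Spaetzle proteins, so the locus numbers are used throughout. Genes of the deposited tables carry numbers only, and no genome position or sequence was used here.

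In Drosophila, Spaetzle is secreted as an inactive pro-protein and cut by a serine protease at the end of a cascade that senses microbes. The cut ligand, a cystine-knot dimer, binds the Toll receptor. MyD88 and the kinase Pelle pass the signal on, the inhibitor Cactus (an IkB) is degraded, and the NF-kB factor Dorsal or its relative Dif then turns on genes for antimicrobial peptides. In that fly, Toll responds mainly to fungi and many Gram-positive bacteria, and the separate IMD pathway responds to the peptidoglycan of bacteria such as E. coli. Cathepsins are proteases, mostly of the papain family, that work in lysosomes.

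The challenged larvae were in the fifth instar and received heat-killed E. coli TOP10 through a proleg, and the naive larvae of the same stage received PBS in the same way. Hemolymph pooled from larvae of each treatment was taken 8 h after injection, and each treatment gave 1 single-cell 3′ library. Cells of 1 library are not replicates, so no test of the treatment was possible, and every interval below is an exact 95% interval that covers counting error only. The libraries kept 12524 challenged and 14840 naive cells, with medians of 5282 and 3347 unique molecular identifiers (UMIs, counts of captured RNA molecules) per cell and totals of 94496277 and 81236890 UMIs. The libraries shared 44 cell barcodes.

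SPEXI_LOCUS12010 was by far the most often counted of the 4 loci. It had 41028 UMIs in 5781 challenged cells, against 28865 UMIs in 5291 naive cells. Of those cells, 4267 challenged and 3505 naive cells held 2 or more UMIs, and the highest cell held 149 and 150. The other 3 loci gave few counts. SPEXI_LOCUS4403 had 96 UMIs in 93 challenged cells and 108 UMIs in 95 naive cells. SPEXI_LOCUS9628 had 57 UMIs in 53 challenged cells, against 119 UMIs in 100 naive cells. SPEXI_LOCUS4651 had 8 UMIs in 8 challenged cells and 19 UMIs in 17 naive cells. A UMI tags the 3′ end of 1 RNA molecule, so counts were not divided by gene length.

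The level of SPEXI_LOCUS12010 over all cells was 434 CPM (UMIs of the gene per 1000000 UMIs of the library; 430.0 to 438) in the challenged library and 355 CPM (351 to 359) in the naive library, a ratio of 1.22 (1.204 to 1.241). Its counts came from a minority of cells. The 626 challenged cells and 742 naive cells with most UMIs of the locus, 5% of each library, held 51.4% and 56.7% of them. With each cell given the same weight, the mean level was 736 CPM in challenged and 483 CPM in naive cells. That ratio, 1.52, exceeded the ratio of the totals, in which deep cells weigh more.

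Among the 10574 genes with at least 20 UMIs in both libraries together, 2.53% were at least 2-fold higher in challenged cells and 12.4% were at least 2-fold lower. None of the 4 Spaetzle loci was at least 2-fold higher. SPEXI_LOCUS9628 was lower, with 0.603 CPM in challenged and 1.46 CPM in naive cells and a ratio of 0.412 (0.295 to 0.569). SPEXI_LOCUS4651 was lower as well, with a ratio of 0.362 (0.137 to 0.866) that rested on 27 UMIs in all.

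Cells of both libraries were clustered together, with the Spaetzle loci and the genes that differed most between the libraries left out, and 34 clusters resulted. Their numbers are not those of the study. Clusters 0, 4, 10 and 19 were called cathepsin-high, since the genes for procathepsin H (SPEXI_LOCUS11288) and a cysteine proteinase 1-like protein (SPEXI_LOCUS6153) together made up 97770 to 292335 CPM there and at most 14749 CPM in any other cluster. The limit of 50000 CPM was set after these levels had been seen. Cluster 6 was the other main source. Its cells were rich in RNA, at 25173 UMIs for the median challenged and 18356 UMIs for the median naive cell, and none of the marker lists was raised 2-fold in it.

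Both sources carried SPEXI_LOCUS12010 in both libraries. The cathepsin-high clusters held 39.9% of its UMIs in the challenged library (39.4% to 40.4%) and 32.8% in the naive library (32.2% to 33.3%). They contained 26.9% of challenged and 19.6% of naive cells. Cluster 6 held 41.6% of the UMIs of the locus in the challenged library (41.2% to 42.1%) and 41.5% in the naive library (40.9% to 42.1%), in only 5.60% of challenged and 4.60% of naive cells. Cluster 6 also contributed 19.8% and 15.7% of all UMIs of these libraries, and both its level and its depth enter that share.

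**Figure D1:**
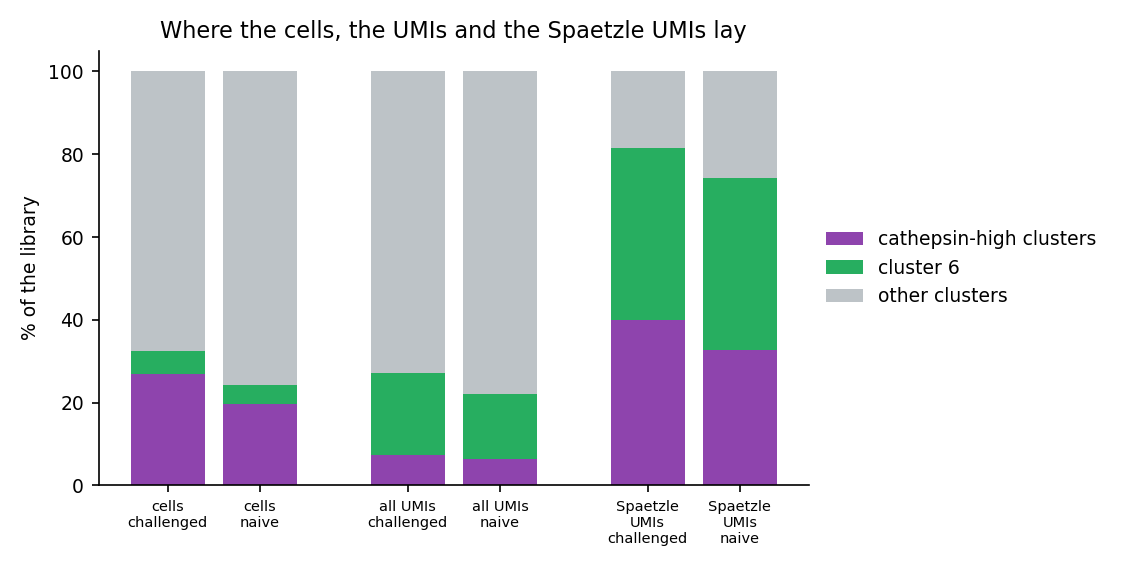
Shares of cells, of all UMIs and of SPEXI_LOCUS12010 UMIs (y axis, % of each library) in the cathepsin-high clusters, cluster 6 and all other clusters, for the challenged and the naive library. Cluster 6 holds 41.6% and 41.5% of the Spaetzle UMIs in 5.60% and 4.60% of the cells.

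The highest level lay in cluster 4, with 3584 CPM (3516 to 3652) in its 1265 challenged cells and 3833 CPM (3717 to 3952) in its 581 naive cells. A UMI of the locus was seen in 96.7% of the challenged and 94.8% of the naive cells of cluster 4, and the median cell held 6 in both libraries. Cluster 0, with 269164 CPM of both cathepsin genes in challenged and 272154 CPM in naive cells against 307779 and 249673 CPM in cluster 4, had 1352 CPM in 1446 challenged cells and 1532 CPM in 1744 naive cells, and its median cell held 2 UMIs in both libraries. The level of SPEXI_LOCUS12010 in cluster 4 was 2.65 times that in cluster 0 among challenged cells (2.55 to 2.75) and 2.50 times among naive cells (2.40 to 2.61). Cluster 10 had 1355 CPM in 236 challenged and 773 CPM in 582 naive cells. Cluster 19 had 1672 CPM in 419 challenged cells and held only 8 naive cells, which had 28 UMIs of the locus.

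In cluster 6 the level was 913 CPM (900 to 927) in 701 challenged cells and 941 CPM (924 to 958) in 683 naive cells. The median cell there held 17 UMIs of the locus in the challenged and 11 UMIs in the naive library, more than in cluster 4, and 96.6% and 95.9% of cells had at least 1. Cluster 6 had little cathepsin RNA, with 1426 CPM for both genes in challenged and 759 CPM in naive cells. For each 1000 cathepsin UMIs it held 640 UMIs of SPEXI_LOCUS12010 in challenged and 1240 in naive cells, where the cathepsin-high clusters held 8.81 and 7.37. The 2 transcripts thus did not keep 1 ratio across these clusters. Called doublets made up 5.78% of cluster 6, and without them its counterpart held 40.8% of the UMIs of the locus in challenged and 41.6% in naive cells. Doublets were called in 1.55% of challenged and 2.91% of naive cells, where 10.0% and 11.9% were expected. Missed doublets may therefore remain in cluster 6, and their part in its counts was not tested.

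The 4 genes of the ribosomal protein list ran higher in cluster 6 than in clusters 4 and 0. The gene for ribosomal protein S23, a part of the small subunit, had 19065 CPM in challenged and 20299 CPM in naive cells of cluster 6, against 3648 and 4728 CPM in cluster 4. Cecropin B, a peptide that kills bacteria, had 20253 CPM in challenged and 2287 CPM in naive cells of cluster 6. In cluster 4 it had 1088 and 126 CPM.

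Several smaller clusters also stood above the lowest levels. Cluster 27 had 759 CPM in 174 challenged and 1043 CPM in 72 naive cells. Cluster 22, led by hemicentin 2-like and BLL4, had 421 CPM in challenged and 631 CPM in naive cells. Cluster 25, also rich in RNA (24129 and 19784 UMIs for the median cell), had 353 CPM in challenged and 405 CPM in naive cells. The 7 clusters high in SPARC, an extracellular matrix glycoprotein, were at the low end with 35.2 CPM in challenged and 29.9 CPM in naive cells over all 7. There, SPEXI_LOCUS12010 stood at 10.6 UMIs per 1000 cathepsin UMIs in challenged and 10.8 in naive cells, close to the ratio in the cathepsin-high clusters. Cluster 5, high in the prophenoloxidase genes PPO1 and PPO2 of the melanin pathway, had 40.1 CPM in challenged and 44.0 CPM in naive cells.

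**Figure D2:**
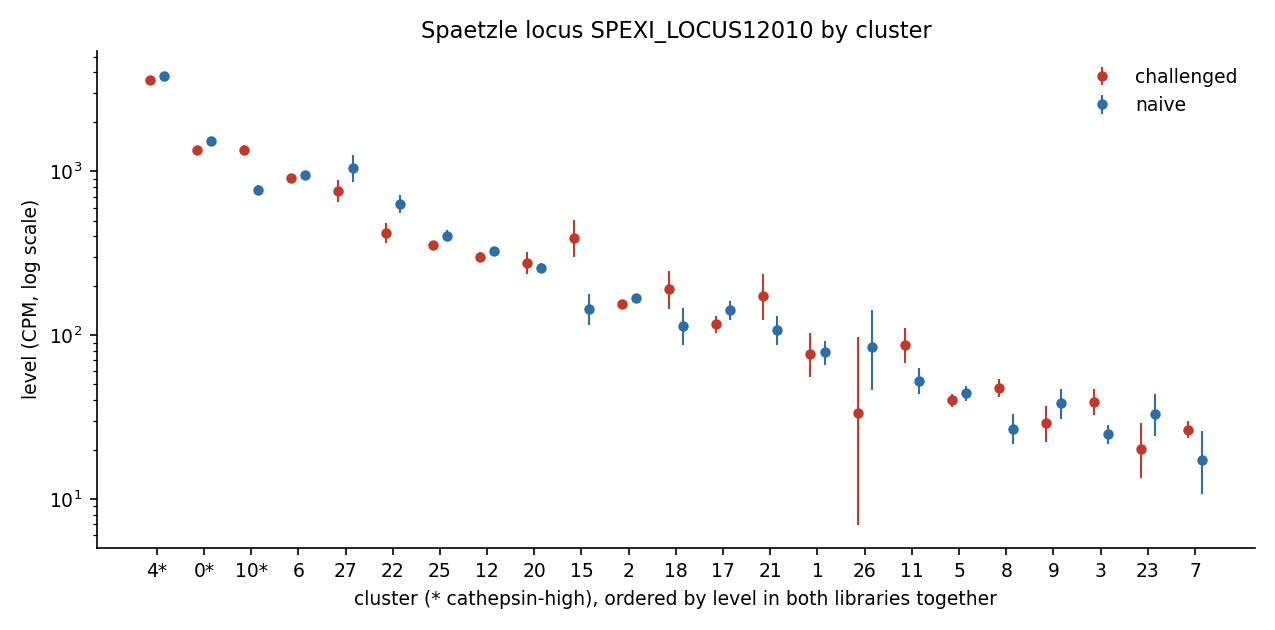
SPEXI_LOCUS12010 level (y axis, CPM, log scale) in each cluster with at least 50 cells of both libraries (x axis, cathepsin-high clusters starred), challenged to the left of naive, with exact Poisson intervals. Cluster 4 is highest with 3584 and 3833 CPM, and cluster 6 reaches 913 and 941 CPM without high cathepsin levels.

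Depth differed between libraries and clusters, so each cell was also thinned to 1000 UMIs, leaving out 1066 challenged and 2683 naive cells with fewer. A UMI of SPEXI_LOCUS12010 then remained in 28.7% of challenged (27.9% to 29.6%) and 22.2% of naive cells (21.5% to 22.95%). In cluster 4 the share was 88.2% in challenged and 90.1% in naive cells, in cluster 0 68.7% and 70.0%, and in cluster 6 49.9% and 49.6%. In the SPARC-high clusters, which had the lowest levels and served as background, it was 3.27% in challenged and 2.41% in naive cells, with median depths before thinning of 7456 and 5518 UMIs. Without thinning, the SPARC-high clusters had a UMI in 10.8% of challenged and 8.79% of naive cells, against 86.4% and 77.6% in the cathepsin-high clusters, whose median depths were lower at 1963 and 1636 UMIs.

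The joint presence of the ligand and the cathepsins was followed cell by cell. Among cells in which both cathepsin genes made up at least 10% of the UMIs, 75.7% of challenged (74.0% to 77.3%) and 69.6% of naive cells (67.7% to 71.5%) had a UMI of SPEXI_LOCUS12010 at equal depth. Among cells with less than 0.5% cathepsin UMIs, cluster 6 had a UMI in 49.9% of 667 challenged and 49.8% of 662 naive cells. The other cells with as little cathepsin RNA had one in 6.12% of challenged and 6.69% of naive cells. The 10% limit falls within a continuous range, with 295 challenged and 288 naive cells between 8% and 12%.

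The share climbed with the cathepsin level up to 20% to 30% cathepsin UMIs and was lower in the cells with most. It was 28.3% in challenged and 18.0% in naive cells with 0.5% to 2% cathepsin UMIs, and 64.6% and 47.5% with 2% to 10%. It reached 78.03% in challenged and 72.4% in naive cells with 10% to 20%. In cells with at least 40% cathepsin UMIs it was 67.7% in challenged and 54.4% in naive cells. Cathepsin UMIs leave less room for others in a cell of fixed depth, so the cathepsin counts were also taken out and the rest thinned to 500 UMIs. On that scale the share was 65.3% in challenged and 60.9% in naive cells with 10% to 20% cathepsin UMIs. It was 63.9% and 55.1% with at least 40%, with overlapping intervals in each library. The level of SPEXI_LOCUS12010 outside the cathepsin counts still differed. It was 3329 CPM in challenged and 2803 CPM in naive cells with 20% to 30% cathepsin UMIs, and 2511 and 1725 CPM with at least 40%.

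**Figure D3:**
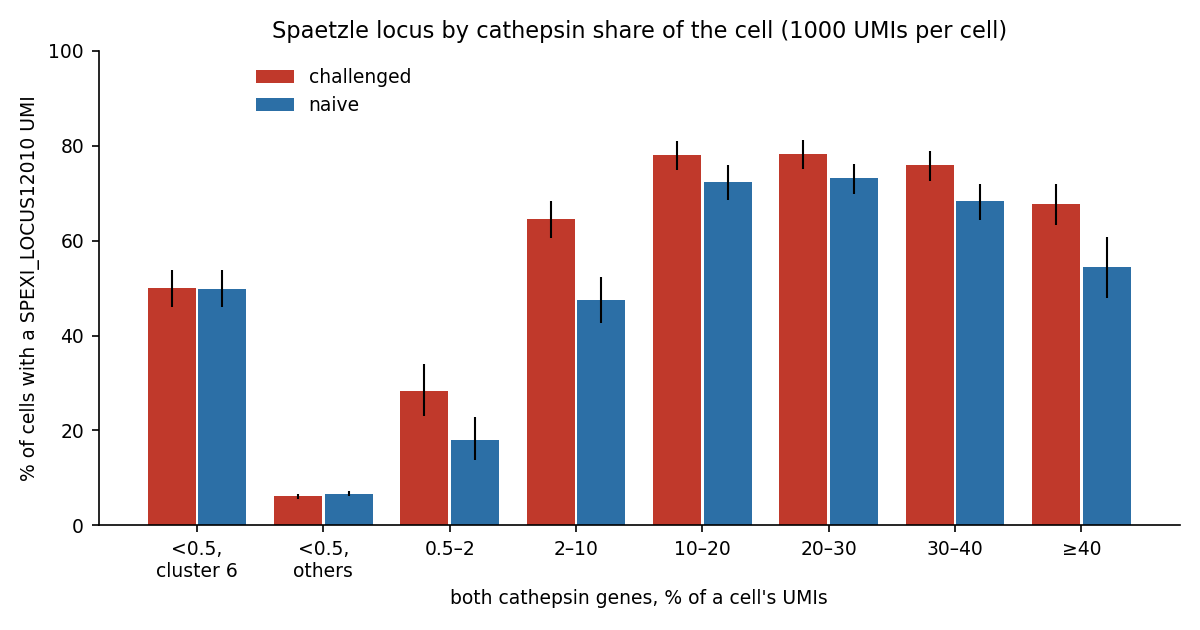
Share of cells with a SPEXI_LOCUS12010 UMI (y axis, %) by the percentage of both cathepsin genes in the UMIs of the cell (x axis), challenged left and naive right, cells thinned to 1000 UMIs, with exact binomial intervals. Cells below 0.5% are split into cluster 6, at 49.9% and 49.8%, and other clusters, at 6.12% and 6.69%.

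Across clusters the same split appeared. The Pearson correlation of SPEXI_LOCUS12010 with procathepsin H was 0.56, and with the cysteine proteinase 1-like gene 0.57. It was taken on log2(CPM + 1) over 55 combinations of cluster and library. Genes within a combination share its depth and normalization, while depth differed between combinations. Of the 7470 genes with at least 100 UMIs in each library, 72 and 66 genes followed SPEXI_LOCUS12010 more closely than these cathepsin genes. Among the 10 closest, 1 had a name in the study's tables: apoptosis-inducing factor 1 (SPEXI_LOCUS3559), a mitochondrial flavoprotein, with r = 0.75. It had 456 CPM in challenged and 219 CPM in naive cells of cluster 4, and 217 and 117 CPM in cluster 0. The closest of all was SPEXI_LOCUS10145 with r = 0.88, which has no name in those tables.

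**Figure D4:**
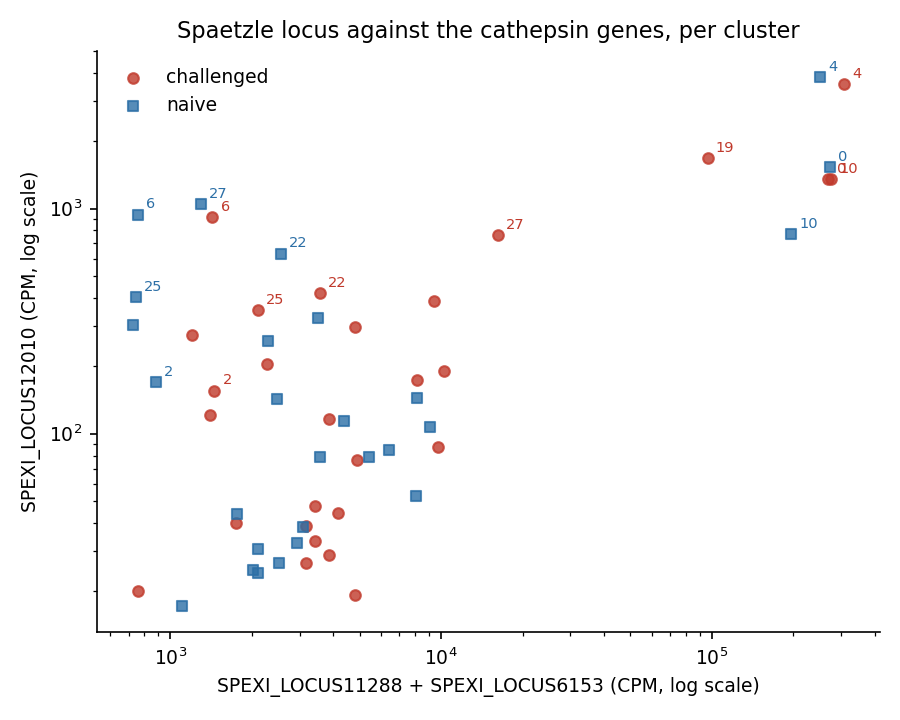
SPEXI_LOCUS12010 level against the summed level of both cathepsin genes (both axes CPM, log scale), 1 point per cluster and library with at least 50 cells. Clusters 4, 0, 10 and 19 stand at the upper right, and cluster 6 stands at 913 and 941 CPM on the y axis with cathepsin levels of 1426 and 759 CPM.

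Cells with many Spaetzle transcripts came from both sources. Of the 1061 challenged cells with at least 10 UMIs of SPEXI_LOCUS12010, 460 lay in cathepsin-high clusters, 474 in cluster 6 and 127 elsewhere. Of the 703 naive cells, 182 lay in cathepsin-high clusters, 370 in cluster 6 and 151 elsewhere. These counts were not thinned, so they follow depth as well as level. The median cell of cluster 6 held 25173 UMIs in the challenged and 18356 in the naive library, against 2271 and 1780 in cluster 4. Within cluster 4, cells with a larger cathepsin share had fewer UMIs of the locus at 1000 UMIs per cell, with Spearman's rho of -0.52 over 1239 challenged and -0.38 over 544 naive cells. With cathepsin UMIs taken out before thinning, rho was -0.36 in challenged and -0.20 in naive cells. On that scale it was -0.06 in both libraries in cluster 0, and 0.02 in challenged and -0.02 in naive cells of cluster 6.

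Clusters 4 and 0, the cathepsin-high clusters with the most cells, also differed in genes of the study's tables. PGRP-LB (SPEXI_LOCUS6461), in Drosophila an amidase that cleaves peptidoglycan, had 1008 CPM in challenged and 1034 CPM in naive cells of cluster 4, against 228 and 6.97 CPM in cluster 0. It was thus 4.41 times as high in cluster 4 as in cluster 0 among challenged cells (4.04 to 4.83) and 148 times among naive cells (95.5 to 244). The gene did not follow SPEXI_LOCUS12010 over all cathepsin-high clusters, since challenged cells had 17479 CPM of PGRP-LB in cluster 19 and 652 CPM in cluster 10, where the Spaetzle levels were 1672 and 1355 CPM. UBR1, which in yeast is a ubiquitin ligase of the N-end rule pathway, had 54.8 CPM in challenged and 78.9 CPM in naive cells of cluster 4, and 10.5 and 9.76 CPM in cluster 0. HP13 (SPEXI_LOCUS4419), a hypothetical protein, had 147 CPM in challenged and 406 CPM in naive cells of cluster 4, against 10.9 and 1.05 CPM in cluster 0.

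The Toll receptors split between the clusters. SPEXI_LOCUS78 had 58.1 CPM in challenged and 72.4 CPM in naive cells of cluster 4, against 32.7 and 22.7 CPM in cluster 0. SPEXI_LOCUS4684 ran the other way, with 23.5 CPM in challenged and 22.3 CPM in naive cells of cluster 4, against 64.7 and 64.5 CPM in cluster 0. The ratio of cluster 4 to cluster 0 was 1.78 (1.36 to 2.33) in challenged and 3.19 (2.27 to 4.51) in naive cells for the first, and 0.364 (0.271 to 0.483) and 0.345 (0.216 to 0.530) for the second. Cluster 6 had at most 6.15 CPM of either receptor. The diagram does not say which Toll protein each locus encodes.

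Within clusters, the level of SPEXI_LOCUS12010 differed little between the libraries in clusters 4, 0 and 6, which held most of its UMIs. In cluster 4 the ratio of challenged to naive was 0.93 (0.90 to 0.97), in cluster 0 0.88 (0.84 to 0.92) and in cluster 6 0.97 (0.95 to 0.99). The direction in cluster 6 turned, to 1.01, when the genes that differed between the libraries were kept for clustering. With the cathepsin markers taken out of the totals, the ratio in cluster 4 was 1.00 (0.96 to 1.04), so the small difference there did not hold on that scale. Cluster 10 was the exception among the cathepsin-high clusters with enough cells, with a ratio of 1.75 (1.59 to 1.93). Called doublets made up 7.33% of cluster 10, the highest share of the 4 clusters, and without them the ratio was 1.68. Its challenged and naive cells also differed in other genes. Both cathepsin genes had 275084 CPM in challenged and 196576 CPM in naive cells, and HP1 (SPEXI_LOCUS5543) had 794 and 1847 CPM. HP1 differed in cluster 4 too, with 57.4 CPM in challenged and 403 CPM in naive cells. In cluster 6 it had 484 CPM in challenged and 207 CPM in naive cells, and in cluster 0 276 and 309 CPM. Whether the 2 libraries hold the same mixture of cells in any of these clusters was not tested. Among the smaller clusters, the ratio was 0.73 (0.57 to 0.93) in cluster 27 and 0.67 (0.55 to 0.81) in cluster 22.

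Of the 23 clusters with at least 50 cells of each library, the interval of this ratio lay below 1 in 9, above 1 in 8 and included 1 in 6. Those above 1 included clusters 3, 7, 8 and 11, which are SPARC-high clusters that served as background. Levels in them were 17.2 to 87.4 CPM. The ratios ran from 0.39 to 2.72 with a median of 0.93. In the 9 clusters with at least 300 CPM in either library, 7 had a ratio below 1. The other 2 were cluster 10 and cluster 15, a cluster of shallow cells in which the locus had 61 UMIs in challenged and 84 UMIs in naive cells. A single challenged cell held 29 of those 61 UMIs, and a single naive cell held 21 of the 84.

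The higher total of the challenged library was compared with the shift in cell composition by arithmetic. Cluster 4 made up 10.1% of challenged and 3.92% of naive cells. Taking the naive levels with the challenged shares of UMIs gave 451 CPM, 1.27 times the naive total. Cluster 13, with 652 challenged and 0 naive cells, has no naive level and kept its challenged level of 44.6 CPM there. Taking the challenged levels with the naive shares gave 349 CPM, 0.98 times the naive total. The observed ratio was 1.22, so the shares of the clusters gave a ratio above 1 and the levels within them gave one slightly below 1. Within the cathepsin-high clusters pooled, the level was 2341 CPM in challenged and 1841 CPM in naive cells, a ratio of 1.27 (1.24 to 1.30), with more of the cells in cluster 4. The clusters are defined by expression, so a cell that changed its state and a change in cell numbers cannot be told apart.

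The 3 sparse loci had their largest naive share in another cluster. In the naive library, cluster 15 held 36 of the 119 UMIs of SPEXI_LOCUS9628 (30.3%, 22.2% to 39.3%), 34 of the 108 UMIs of SPEXI_LOCUS4403 (31.5%, 22.9% to 41.1%) and 9 of the 19 UMIs of SPEXI_LOCUS4651 (47.4%, 24.4% to 71.1%). This cluster contributed 0.720% of the naive UMIs. It had 511 naive cells with a median of 901 UMIs, too shallow to be named, although the genes calphotin-like, trypsin, alkaline B and HP12 were raised in it. The levels there were 61.5 CPM for SPEXI_LOCUS9628, 58.1 CPM for SPEXI_LOCUS4403 and 15.4 CPM for SPEXI_LOCUS4651. Whether other genes with as few UMIs also had their largest naive share in cluster 15 was not tested. The pattern therefore cannot be called particular to the Spaetzle loci.

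The UMIs of cluster 15 were spread over many cells. Of its 511 naive cells, 54 held a UMI of at least 1 of the 3 loci, 4 held UMIs of more than 1 locus and none held all 3. The challenged library had 92 cells in this cluster, with 4 UMIs of SPEXI_LOCUS9628 (25.6 CPM, 6.97 to 65.5) and 7 UMIs of SPEXI_LOCUS4403 (44.7 CPM, 18.0 to 92.2). These intervals overlapped those of the naive cells. SPEXI_LOCUS4651 had 0 UMIs there, which allows up to 19.2 CPM (3 counts), so a difference from the naive level was not detectable at this depth.

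Outside cluster 15, SPEXI_LOCUS9628 was seen most in cluster 25, with 12 UMIs in challenged and 16 UMIs in naive cells, and in cluster 1, with 6 and 16 UMIs. It had no UMI in the 3366 challenged cells of the cathepsin-high clusters and 9 UMIs in the 2915 naive cells. SPEXI_LOCUS4403 was spread more evenly, over 21 clusters in each library, with 11 UMIs in challenged and 15 UMIs in naive cells of cluster 2 and 10 and 4 UMIs in cluster 4. Its level in cluster 4 was 3.36 CPM in challenged and 3.71 CPM in naive cells, against 1.02 and 1.33 CPM over the libraries. Over all cells, 46.2% of challenged and 35.7% of naive cells held SPEXI_LOCUS12010. At least 10% cathepsin UMIs were found in 2842 of 12524 challenged and 2530 of 14840 naive cells. Of the cells with a UMI of SPEXI_LOCUS4403, 58 of 93 challenged (62.4%) and 45 of 95 naive cells (47.4%) also held SPEXI_LOCUS12010. Of them, 13 and 10 had at least 10% cathepsin UMIs. Their median depths were 9776 and 2337 UMIs, against 5282 and 3347 in the libraries. For SPEXI_LOCUS9628, 24 of 53 challenged (45.3%) and 35 of 100 naive cells (35%) also held SPEXI_LOCUS12010, near the shares over all cells. SPEXI_LOCUS4651 had its 8 challenged UMIs in 6 clusters and its 19 naive UMIs in 7 clusters. Nearly all cells with a sparse locus held a single UMI, since 2 or more were found in 3 challenged and 12 naive cells for SPEXI_LOCUS9628 and in 3 and 9 cells for SPEXI_LOCUS4403.

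Without cluster 15, the challenged over naive ratio was 0.546 (0.379 to 0.780) for SPEXI_LOCUS9628, which was then no longer past 2-fold. For SPEXI_LOCUS4403 it was 1.03 (0.747 to 1.42), against 0.764 (0.574 to 1.02) with all cells. For SPEXI_LOCUS4651 it was 0.684 (0.235 to 1.92). The cluster made up 0.735% of challenged and 3.44% of naive cells.

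**Figure D5:**
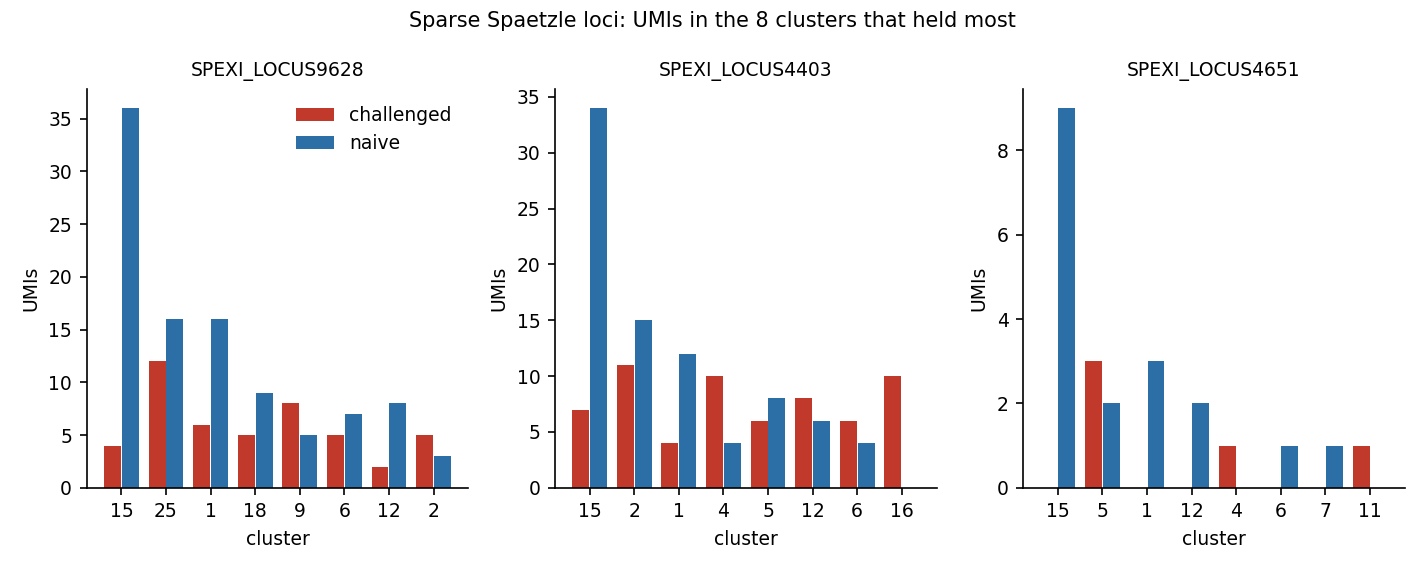
UMIs (y axis) of the 3 sparse Spaetzle loci in the 8 clusters (x axis, by number) that held most of each, challenged left and naive right. Cluster 15 stands out in the naive library with 36, 34 and 9 UMIs.

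The rest of the Toll pathway list moved unequally. It holds 16 genes, 14 of them with at least 20 UMIs, and the members follow the study's diagram and tables. Of these 14, 5 were at least 2-fold higher in challenged cells, where 2.53% of all genes counted were, and 0 were at least 2-fold lower, where 12.4% were. The median log2 ratio over all genes counted was -0.05. The list was chosen with earlier results of these data known. Its antimicrobial peptides came from the study's tables of genes highest in clusters of these same libraries, the cecropins in challenged cells among them. The count of 5 is thus a description and no test of a pathway response. The paper places these peptides downstream of the Toll and IMD pathways together.

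The 5 higher genes were recognition and effector genes. Small peptidoglycan recognition proteins bind bacterial cell wall. SPEXI_LOCUS6460 had 65.7 CPM in challenged and 6.55 CPM in naive cells, a ratio of 10.0 (9.18 to 10.98). SPEXI_LOCUS12275 had 20.5 CPM in challenged and 4.52 CPM in naive cells, and SPEXI_LOCUS12278 had 7.21 and 2.03 CPM. The other small recognition protein, SPEXI_LOCUS3847, had 1.30 CPM in challenged and 1.03 CPM in naive cells. Cecropin B had 19530 CPM in challenged and 2745 CPM in naive cells, a ratio of 7.12, and cecropin A1 had 5601 and 1203 CPM, a ratio of 4.66. The defensin-like peptide spodoptericin had 1119 CPM in challenged and 1421 CPM in naive cells. Within clusters it went both ways. Its challenged over naive ratio was 2.58 (2.33 to 2.86) in cluster 4, 2.81 (2.66 to 2.96) in cluster 0 and 0.72 (0.69 to 0.74) in cluster 6.

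Receptors and signaling genes with at least 20 UMIs stayed within 2-fold in the library totals, as did SPEXI_LOCUS12010. The Toll receptor SPEXI_LOCUS78 had 23.6 CPM in challenged and 18.8 CPM in naive cells, a ratio of 1.25 (1.17 to 1.34). SPEXI_LOCUS4684 had 5.74 CPM in challenged and 5.59 CPM in naive cells, and SPEXI_LOCUS4652 had 0.677 and 0.615 CPM, though its ratio was 0.458 with each cell given the same weight. The fourth receptor, SPEXI_LOCUS1095, had 1 UMI in challenged and 4 UMIs in naive cells. The adaptor MyD88 had 27.4 CPM in challenged and 28.0 CPM in naive cells, and Pelle had 26.3 and 22.02 CPM. Of the pair of loci given for Dorsal and IkB, SPEXI_LOCUS11477 had 18.5 CPM in challenged and 28.4 CPM in naive cells, a ratio of 0.65 (0.61 to 0.70), and SPEXI_LOCUS11478 had 1.94 and 2.84 CPM. The glucan receptor SPEXI_LOCUS8090 had 11 UMIs in challenged and 6 UMIs in naive cells.

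The clusters richest in the ligand were not those richest in cecropin. In cluster 4, cecropin B was 1088 CPM in challenged and 126 CPM in naive cells, below the library levels given above, and cecropin A1 was 320 and 74.2 CPM. In cluster 0, cecropin B was 1740 CPM in challenged and 173 CPM in naive cells. For cecropin B, challenged cells had 8.62 times the naive level in cluster 4, 10.1 times in cluster 0 and 8.86 times in cluster 6. Over the libraries it was 7.12 times. Only cluster 6, of these 3, combined SPEXI_LOCUS12010 at over 900 CPM with cecropin B near the library level, at 20253 CPM in challenged and 2287 CPM in naive cells.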

How the data were processed

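Hemocytes of challenged and naive larvae were each measured in 1 library. The authors prepared 10x Chromium 3′ libraries, ran Cell Ranger and deposited UMI counts, not normalized, for every gene in each called cell. The file header names Cell Ranger 7.2.0, while the study's methods name another version. Cells with 200 to 6000 genes were kept (12524 of 12530 challenged, 14840 of 14866 naive). The mitochondrial filter of the study was not applied, since mitochondrial genes were not identified here. Scrublet in scanpy 1.11.5 called 194 challenged and 432 naive doublets (1.55% and 2.91%, where 10.0% and 11.9% were expected), which were kept in the main results, and some may have been missed.

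Cells of both libraries were clustered in Seurat 5.3.0 under R 4.3.3 (5000 variable genes, 30 components, 20 neighbors, resolution 0.8). The 4 Spaetzle loci and 95 genes whose median log2 ratio between libraries over 21 clusters of a first clustering was above 1 or below -1 were left out of the variable genes. Groups of clusters took the marker list with the highest median fold over all cells, if at least 2. For levels, the UMIs of all cells in a group were added and given as CPM with Poisson intervals (exact). Ratios are challenged over naive with exact conditional intervals, and shares have Clopper-Pearson intervals, all at 95%. No p-value was computed. The routine for ratio intervals was run on simulated Poisson totals, the model it assumes. That simulation leaves out the uneven spread of counts over cells, so it does not show how well the intervals cover here. The thinning routine was also run on simulated counts. A count of 0 was given the limit of 3 counts. Cells were thinned to 1000 UMIs without replacement.

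Named genes were the 4 loci, the cathepsin genes, the Toll list, marker genes, the genes most like SPEXI_LOCUS12010 and genes of the study's tables that differed most between clusters 4 and 0. Members and lists were chosen with earlier results of these data known. Alternatives were other totals (edgeR 4.0.16 TMM factors among them), resolutions of 0.4 and 1.2, thinning depths, a limit of 2 UMIs, at least 500 genes per cell, and leaving out doublets or marker genes.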

Additional observations from a re-analysis of the deposited data

How the results depend on the processing

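No paired analysis was possible because each treatment had 1 library. The library ratio of SPEXI_LOCUS12010 stayed above 1 under all 6 alternatives: it was 1.52 with each cell given the same weight, 1.195 without the 50 most abundant genes in the totals, 1.31 with TMM factors, 1.199 without called doublets and 1.30 with at least 500 genes per cell, and it stayed within its interval without the cathepsin markers in the totals. Without called doublets the cathepsin-high clusters held 41.0% of its UMIs in challenged cells. The counterpart of cluster 6, examined after its weight had been seen, held 46.4% in challenged and 44.1% in naive cells at resolution 0.4, 40.4% in challenged cells with response genes kept and 40.8% without called doublets. The ratio within cluster 6 was 0.90 at resolution 0.4 and turned to 1.01 with response genes kept. The cause was not tested. In cluster 4 it was 1.00 without the cathepsin markers in the totals. In cluster 10 it was 1.97 without those markers, 1.93 at resolution 0.4, 1.58 at resolution 1.2 and 1.96 with response genes kept.

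Shares of cells with a UMI follow depth by construction. For all cells they were 29.9% in challenged and 23.9% in naive cells at 2000 UMIs, 20.3% and 14.6% at 500 UMIs, and 16.3% and 11.1% with a limit of 2 UMIs. For cells with at least 10% cathepsin UMIs they were 90.1% and 83.9% at 2000 UMIs and 50.5% and 44.9% with a limit of 2 UMIs. For cells with less than 0.5% they were 15.04% and 15.9% at 2000 UMIs and 2.83% and 2.59% with a limit of 2 UMIs. Among the Toll genes, 1, the receptor SPEXI_LOCUS4652, was at least 2-fold lower with each cell given the same weight (0.458). With 1 library per treatment and 8 to 119 UMIs for the sparse loci, counting error limits their levels and spread between animals is unknown.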

Other observations

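The gene for sodium/calcium exchanger regulatory protein 1 (SPEXI_LOCUS6327) was high in both sources of SPEXI_LOCUS12010. It had 67871 CPM in challenged and 79814 CPM in naive cells of cluster 4, and 69878 and 76207 CPM in cluster 0. In cluster 6 it had 21053 CPM in challenged and 18457 CPM in naive cells, above its library levels of 12065 and 10309 CPM. Its correlation with SPEXI_LOCUS12010 over the 55 combinations of cluster and library was 0.68. PGRP-LB was 19.4 times as high in the challenged library as in the naive library (18.98 to 19.9), with 1902 and 97.96 CPM, while its level in cluster 4 was 1008 CPM in challenged and 1034 CPM in naive cells. The hypothetical proteins HP1 and HP2 were 57.4 and 37.3 CPM in challenged cells of cluster 4, against 403 and 243 CPM in its naive cells.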
